A study of Mus musculus with 12 samples.

Results

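Mas-related G protein-coupled receptors are receptors of primary sensory neurons, the cells whose bodies lie in the dorsal root ganglion. The 6 genes described here, Mrgprd, Mrgprb4, Mrgprb5, Mrgpra3, Mrgprx1 and Mrgpre, were taken by symbol from 24056 genes measured in mouse dorsal root ganglion by RNA-seq. All 6 passed the filter on low values, which kept 14193 genes with an RPKM (reads per gene, scaled to gene length and library size) of at least 1 in at least 3 libraries. Another 15 genes of the family were present in the files, of which 6 passed the same filter.

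The ganglia came from adult male mice of the C57BL/6J strain, 9 to 10 weeks old, with no transgene named in the labels. The naive mice had no operation described in the labels. The others were studied 1, 3 or 7 days after spared nerve injury, which serves as a pain model: the common peroneal and tibial divisions of the sciatic are tied off and cut and the sural is left intact. Each of the 4 groups had 3 libraries, and the labels do not say whether a library is from 1 animal or a pool, or which ganglia were taken, so p-values measure only the spread between these samples. With no sham operation among the groups analysed here, the effects of the operation and of the nerve damage cannot be told apart.

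In the mouse, these receptors mark small unmyelinated neurons that end in the skin. Mrgprd, the receptor for beta-alanine, is the defining gene of the large nonpeptidergic nociceptor class. Mrgpra3, a receptor for chloroquine, and Mrgprx1, a receptor for the peptide BAM, mark neurons that carry itch. Mrgprb4 marks neurons that respond to stroking of hairy skin, and Mrgprb5 lies beside it in the genome and is known from an overlapping set of neurons. Mrgpre is an orphan receptor of sensory neurons. The receptors signal through G proteins of the Gq and Gi classes, phospholipase C-beta and TRP channels, and the transcription factor Runx1 controls the development of the neurons that carry them.

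The libraries held 13626893 to 17952865 reads, as recovered from the steps between the deposited values, and the correlation between replicates of a group ran from 0.953 to 0.976 across genes. Of the 18 general sensory neuron markers in the files, such as Avil, none was at 0 in every library, with sums of 1430 to 2400 RPKM per library. Atf3, a transcription factor induced in axotomized neurons, averaged 2.36 ± 0.03 RPKM in naive ganglia and 69.4 ± 10.7, 90.9 ± 11.7 and 55.8 ± 13.2 RPKM at days 1, 3 and 7 (SD, n = 3 each). Skeletal muscle markers summed to 47.7 RPKM in naive replicate 1 and 34.4 RPKM in day 7 replicate 2, against 4.94 to 15.5 RPKM in the other 10 libraries. In whole ganglia, fewer cells of a type and less RNA per cell cannot be told apart.

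All 6 genes lie on chromosome 7 (GRCm38, GENCODE M21) and are annotated as protein-coding. Mrgpra3 (chr7:47588950-47601372), Mrgprx1 (chr7:48020971-48027597), Mrgprb5 (chr7:48167983-48169019) and Mrgprb4 (chr7:48198070-48199288), all on the minus strand, belong to a cluster of 15 receptor genes between 47185707 and 48643811. Mrgpre (chr7:143778363-143784500, minus strand) and Mrgprd (chr7:145314835-145324086, plus strand) lie apart from it. An exon of Mrgpre overlaps the small gene Gm22064, and since it is not stated whether the counting used strand, reads of the overlapping stretch could come from either.

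Mrgprb5 and Mrgprb4 are neighbours 29.1 kb apart, with transcripts that are 84.4% identical over 1034 aligned bases. They are shown here because the levels of these neighbours are compared with each other in each library. The 300 bases around the annotated start of each, from RefSeq on GRCm38.p6, minus strand, are written 5′ to 3′ with capitals at the 54 bases that differ between them. The Mrgprb5 window is chr7:48168936-48169235 and the Mrgprb4 window is chr7:48199129-48199428.
Mrgprb5: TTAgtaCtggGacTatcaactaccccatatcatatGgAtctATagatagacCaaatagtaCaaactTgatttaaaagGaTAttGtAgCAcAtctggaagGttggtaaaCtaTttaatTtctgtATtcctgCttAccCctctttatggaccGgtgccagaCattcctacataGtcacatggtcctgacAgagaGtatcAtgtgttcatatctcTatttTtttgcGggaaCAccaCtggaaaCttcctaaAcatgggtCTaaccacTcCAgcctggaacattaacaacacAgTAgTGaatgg
Mrgprb4: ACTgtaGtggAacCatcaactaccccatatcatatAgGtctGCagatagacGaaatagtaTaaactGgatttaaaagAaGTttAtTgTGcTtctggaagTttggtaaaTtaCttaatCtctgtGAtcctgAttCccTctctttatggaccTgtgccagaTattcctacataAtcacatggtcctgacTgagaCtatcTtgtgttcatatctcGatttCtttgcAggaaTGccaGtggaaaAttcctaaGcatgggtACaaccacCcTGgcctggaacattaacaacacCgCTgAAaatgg
The windows were identical at 246 of 300 bases (82.0%). In both genes the annotated start is at an ATG, so the window holds 250 bases before the start of the coding sequence and its first 50 bases, and need not hold the start of transcription. The motifs searched, on both strands, were 4, and none contains another. The RUNX core TGTGGT was in 16.8% of 32851 promoter windows of this length, its variant TGCGGT in 6.45%, the AP-1 site TGANTCA in 7.81% and the CRE site TGACGTCA in 1.79%. None of the 4 was present in the windows of Mrgprb5, Mrgprb4, Mrgprd, Mrgprx1 or Mrgpre. Mrgpra3 has no window in the table used.

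In naive ganglia, the level per length was highest for Mrgprd, followed by Mrgprb5 and Mrgprb4, then Mrgpra3, and then Mrgprx1 and Mrgpre. The libraries of Mrgprb5 and Mrgprb4 overlapped in that order, as did those of Mrgprx1 and Mrgpre, and the other neighbours in the order were separate. At days 1 and 3, Mrgprb4 stood above Mrgprb5 in every library, whereas at day 7 their libraries overlapped again. Mrgprd was the highest of the 6 in every group. The summed RPKM of the 6 genes was 127 ± 5.67 in naive ganglia, 82.5 ± 11.3 at day 1, 77.7 ± 8.71 at day 3 and 101 ± 8.94 at day 7 (SD, n = 3 each), with every injured library below every naive library.

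**Figure D1:**
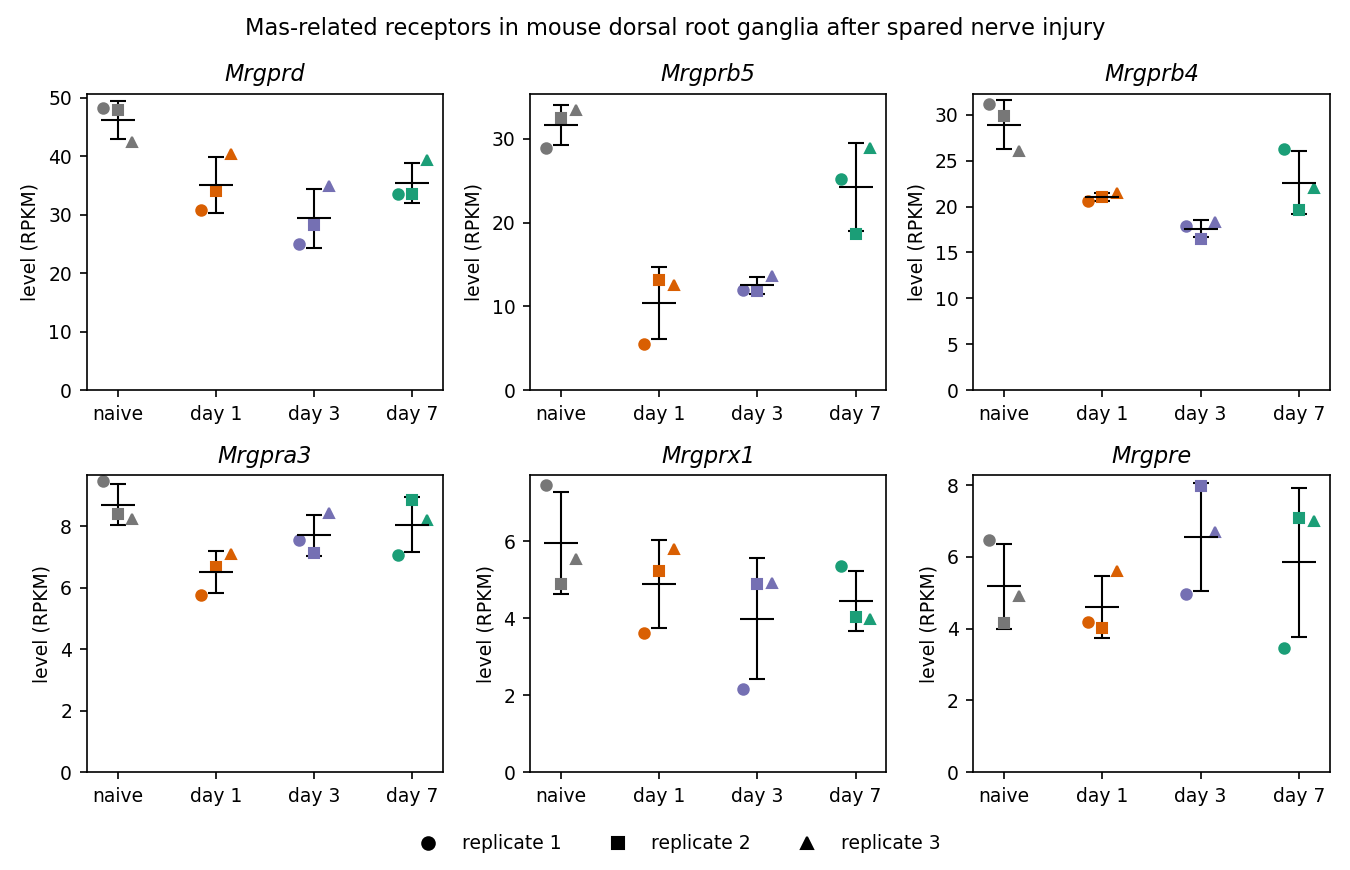
RPKM (y axis, from 0) of the 6 receptors in each of the 12 libraries by group (x axis), with the mean and SD of 3 libraries as horizontal lines and bars and the replicate number as the marker. Mrgprb5 lies between 5.50 and 13.6 RPKM in the 6 libraries of days 1 and 3, against 28.9 to 33.4 RPKM in naive libraries, while the naive and injured libraries of Mrgpre overlap on every day.

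Changes were tested with limma on log2(RPKM + 0.5), with Benjamini-Hochberg adjustment over all 14193 genes and a threshold of 0.05, and fold changes are on that scale. At day 1, 1 of the 6 receptors passed, Mrgprb5, which fell, beside 3.42% of all genes tested (0.831% lower). At day 3, 3 of 6 fell, namely Mrgprb5, Mrgprb4 and Mrgprd, beside 5.67% of all genes (1.95% lower). At day 7, 0 of 6 passed in limma, beside 2.92% of all genes (0.599% lower). At day 7, 2 of 6 were below an unadjusted p of 0.05, a threshold at which all genes were not counted. With voom weights on the recovered reads, limma called 0 of the 6, beside 551 genes in all. With the 3 days averaged against naive, the same 3 receptors as at day 3 fell, beside 5.83% of all genes (1.9% lower). The median log2 change of the 6 was -0.39, -0.64 and -0.39 at days 1, 3 and 7, beside medians of -0.005 to 0.003 for all genes. In deposited RPKM, 4, 3 and 2 receptors had every library below every naive library at days 1, 3 and 7. None had every library above. How many of all genes were separated in this way was not counted, so these counts are a description only. An exact permutation test of 3 against 3 libraries cannot go below 0.1, so single days rest on limma alone.

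Mrgprb5 had the largest log2 changes of the 6 at days 1 and 3. It had 28.9, 32.5 and 33.4 RPKM in naive ganglia, 5.50, 13.2 and 12.5 RPKM at day 1, 12, 11.8 and 13.6 RPKM at day 3, and 25.2, 18.6 and 28.9 RPKM at day 7. The libraries of days 1 and 3 were all under 14 RPKM. In deposited RPKM those of day 7 lay between them and the naive libraries, the highest of day 7 just under the lowest naive. On the scaled values that were tested, day 7 replicate 1 (factor 0.909) and naive replicate 1 (factor 1.05) stood at about the same level. Day 7 was thus not clearly separate from naive on that scale. The lowest library, day 1 replicate 1, rested on 85 reads (95% exact Poisson interval 67.9 to 105). The log2 change against naive was -1.64 ± 0.26 at day 1 (SE, limma adjusted p = 0.00404) and -1.33 ± 0.26 at day 3 (adjusted p = 0.0102). At day 7 it was -0.42 ± 0.26 with a 95% interval of -1 to 0.15, which did not pass (adjusted p = 0.582). The calls of days 1 and 3 held under all 26 other settings tried, with log2 changes of -2.12 to -1.27 at day 1 and -1.44 to -1.28 at day 3.

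The later level of Mrgprb5 was compared between days. At day 7 it was higher in every library than at day 1 and than at day 3, with a log2 change of 1.22 ± 0.26 over day 1 (limma adjusted p = 0.0552) and of 0.91 ± 0.26 over day 3 (adjusted p = 0.819), neither of which passed. The difference between days 7 and 1 passed in 4 of 26 other settings, with an adjusted p of 0.00419 to 0.259 over all of them. Between days, 0 of the 6 receptors passed in limma, beside 0.507% of all genes for day 3 against day 1, 0.972% for day 7 against day 1 and 0% for day 7 against day 3. At an unadjusted p under 0.05 there were 1, 2 and 3 receptors in these comparisons, a threshold at which all genes were not counted. With voom weights 0, 1 and 0 receptors passed. Among all genes, voom called 147 for day 3 against day 1 and 238 for day 7 against day 1.

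Mrgprd, the most abundant of the 6, rested on 1247 to 2510 reads per library. It had 48.3, 48 and 42.4 RPKM in naive ganglia, 30.8, 34.1 and 40.4 RPKM at day 1, 25, 28.3 and 34.9 RPKM at day 3, and 33.5, 33.5 and 39.4 RPKM at day 7. Every injured library was below the lowest naive library, with the lowest levels at day 3. The log2 change was -0.68 ± 0.13 at day 3 (limma adjusted p = 0.00489) and held under all 26 other settings. At days 1 and 7 it was -0.39 ± 0.13 (adjusted p = 0.132) and -0.40 ± 0.13 (adjusted p = 0.129), which did not pass. Over the 3 days together it fell by 0.49 ± 0.10 on the log2 scale (adjusted p = 0.01), but not past the threshold when naive replicate 2 was left out (adjusted p = 0.0809), nor without the 2 libraries with muscle transcripts (adjusted p = 0.0697).

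Mrgprb4 had a course close to that of Mrgprd. It had 31.1, 29.8 and 26 RPKM in naive ganglia, 20.6, 21 and 21.5 RPKM at day 1, 17.9, 16.5 and 18.3 RPKM at day 3, and 26.3, 19.6 and 22 RPKM at day 7. The libraries of days 1 and 3 were all below the naive libraries, and 1 library of day 7 was above the lowest of them. The log2 change was -0.73 ± 0.14 at day 3 (limma adjusted p = 0.00682), held under all 26 other settings, and -0.44 ± 0.14 at day 1 (adjusted p = 0.13) and -0.38 ± 0.14 at day 7 (adjusted p = 0.232), which did not pass. Over the 3 days together it fell by 0.52 ± 0.12 on the log2 scale (adjusted p = 0.0159), but the call was lost when naive replicate 1 or 2 was left out (adjusted p = 0.0708 and 0.0999); the adjusted p was 0.0922 without the muscle libraries and 0.104 with values centred on the general neuron markers.

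Mrgprb5 and Mrgprb4 were then set against each other within each library. The ratio of Mrgprb5 to Mrgprb4 RPKM was 0.932, 1.09 and 1.28 in naive ganglia, 0.267, 0.626 and 0.584 at day 1, 0.673, 0.716 and 0.741 at day 3, and 0.958, 0.952 and 1.31 at day 7. At days 1 and 3 all 6 ratios lay below the lowest naive ratio, and at day 7 they overlapped with the naive ratios. Over the 3 days together the log2 ratio of Mrgprb4 over Mrgprb5 was 0.62 higher in the 9 injured libraries than in the 3 naive libraries, which did not pass (two-sided exact permutation p = 0.0909, adjusted p = 0.218 over 15 pairs of receptors). Mrgprb5 made up 25 ± 2.88% of the summed RPKM of the 6 receptors in naive ganglia, 12.3 ± 4.05% at day 1, 16.1 ± 1.03% at day 3 and 23.9 ± 3.18% at day 7 (SD, n = 3 each). Of the 50-base stretches of the transcripts, 0.81% of those of Mrgprb5 and 1.45% of those of Mrgprb4 occur in another gene, and the part of shared reads in the ratio was not tested.

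**Figure D2:**
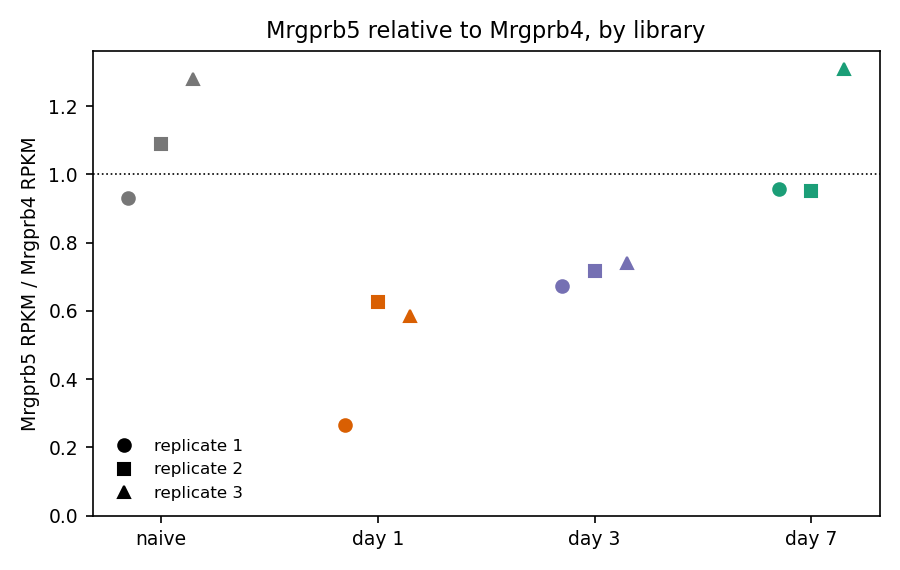
RPKM of Mrgprb5 divided by that of Mrgprb4 (y axis, from 0) in each of the 12 libraries by group (x axis), with the dotted line at a ratio of 1. The 6 libraries of days 1 and 3 lie between 0.267 and 0.741, below the naive libraries at 0.932 to 1.28, and those of day 7 lie among the naive libraries.

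Mrgpra3, the chloroquine receptor, moved less. It had 9.48, 8.42 and 8.24 RPKM in naive ganglia, 5.77, 6.67 and 7.10 RPKM at day 1, 7.56, 7.13 and 8.44 RPKM at day 3, and 7.08, 8.87 and 8.22 RPKM at day 7. The day 1 libraries were all below the naive libraries, and those of days 3 and 7 overlapped with them. The log2 change at day 1 was -0.39 ± 0.12, with a 95% interval of -0.64 to -0.14, which did not pass after adjustment (limma adjusted p = 0.104). At days 3 and 7 the intervals were -0.45 to 0.06 and -0.39 to 0.12 (adjusted p = 0.444 and 0.745). It rested on 119 to 203 reads per library. Of its 50-base stretches, 7.14% are found in other genes, chiefly other Mrgpra genes, against 0.81% for Mrgprb5, 1.45% for Mrgprb4 and 0.0% for Mrgprd. Some of its reads could therefore have been assigned to another gene.

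Mrgprx1, the receptor for BAM, had the fewest reads of the 6, at 41 to 126 per library. It had 7.45, 4.90 and 5.53 RPKM in naive ganglia, 3.62, 5.23 and 5.81 RPKM at day 1, 2.17, 4.88 and 4.91 RPKM at day 3, and 5.35, 4.03 and 3.98 RPKM at day 7. The groups overlapped on every day. The log2 change was lowest at day 3, at -0.61 ± 0.26 with a 95% interval of -1.16 to -0.05, and did not pass (limma adjusted p = 0.229). The lowest library, day 3 replicate 1, held 41 reads (95% exact Poisson interval 29.4 to 55.6). Counting intervals cover counting error only, since amplified reads are not independent molecules.

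Mrgpre, the orphan receptor, had 6.47, 4.17 and 4.91 RPKM in naive ganglia, 4.19, 4.01 and 5.60 RPKM at day 1, 4.98, 7.97 and 6.69 RPKM at day 3, and 3.46, 7.10 and 7.00 RPKM at day 7. The groups overlapped on every day. The log2 change was -0.14, 0.28 and 0.09 at days 1, 3 and 7, with 95% intervals of -0.60 to 0.31, -0.17 to 0.73 and -0.36 to 0.55 (limma adjusted p = 0.829, 0.557 and 0.927). In 4 of 4 groups the replicates of Mrgpre stood in the same order as the summed general neuron markers. Those sums were 2320, 1750 and 1790 RPKM in naive replicates 1 to 3, 1790, 1520 and 2230 RPKM at day 1, 1820, 2400 and 2270 RPKM at day 3, and 1430, 2280 and 2160 RPKM at day 7. The order was not particular to neuron markers, since the summed satellite glia markers stood in it in every group. Their sums were 771, 551 and 588 RPKM in naive ganglia and 506, 459 and 655 RPKM at day 1. At days 3 and 7 they were 550, 707 and 700 RPKM and 484, 778 and 702 RPKM. The same order held in 1 group each for Mrgpra3 and Mrgprx1 and in 0 groups for the other 3 receptors, and its part in the spread of Mrgpre was not tested.

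**Figure D3:**
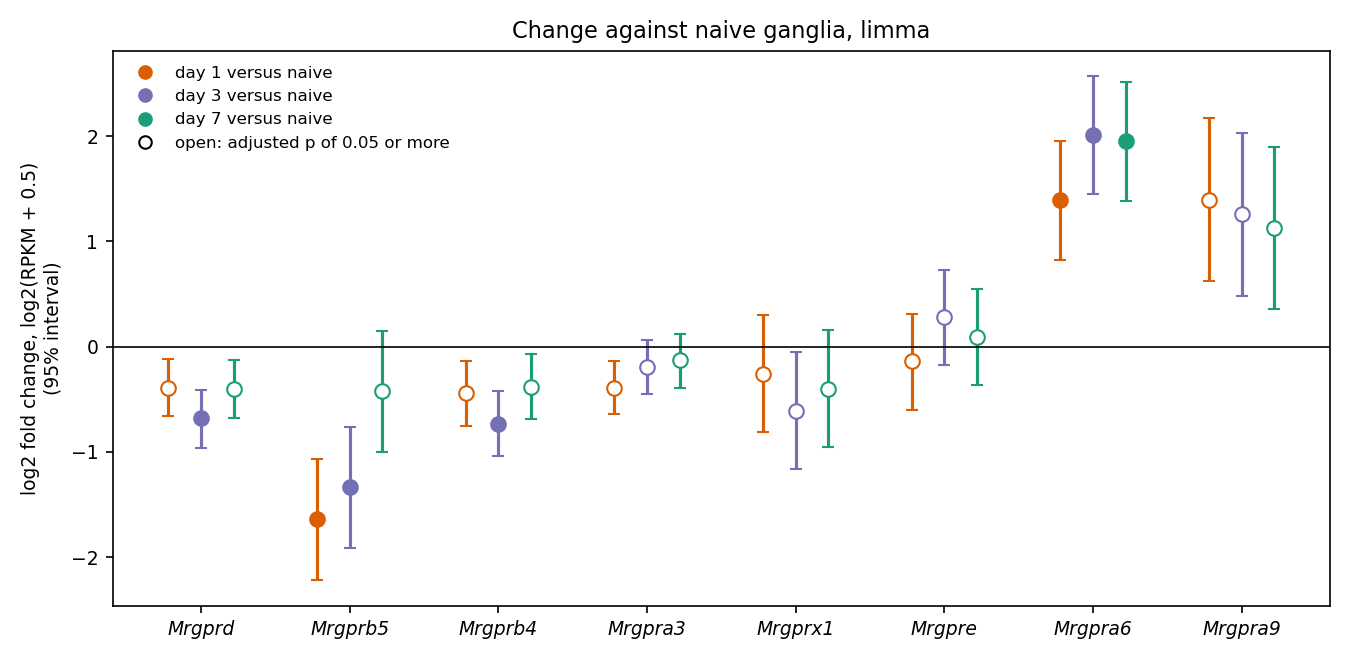
Log2 fold change against naive ganglia at days 1, 3 and 7 (y axis, on the log2(RPKM + 0.5) scale) with its 95% interval from limma, for the 6 receptors and for Mrgpra6 and Mrgpra9, filled where the adjusted p is under 0.05. Filled points below 0 belong to Mrgprb5 at days 1 and 3 and to Mrgprb4 and Mrgprd at day 3, and filled points above 0 to Mrgpra6 on all 3 days.

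Whether receptors changed by different amounts was tested for all 15 pairs of the 6, as the log2 ratio of the 2 members in the 9 injured libraries against the 3 naive libraries. By a two-sided exact permutation test with 220 arrangements, whose smallest p here is 0.00909, 0 of 15 pairs passed after Benjamini-Hochberg adjustment over the pairs, with 0.218 as the lowest adjusted p. Fewer than 3 pairs alone could not pass, even at that smallest p. The pairs with an unadjusted p under 0.05 were 2, Mrgprb5 over Mrgpre with a log2 difference of -1.21 (exact permutation p = 0.0273) and Mrgpra3 over Mrgprb5 with 0.89 (exact permutation p = 0.0455). Mrgprb4 over Mrgprd differed by -0.02 between injured and naive libraries (exact permutation p = 0.809). Across the 12 libraries, with values centred on their naive means, the smallest root mean square difference between members was also that of Mrgprb4 and Mrgprd, at 0.161 log2 units, and the largest was that of Mrgprb5 and Mrgpre, at 1.21.

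Other genes of the family were examined by the same fit. Of the 15, 6 passed the filter, and 1 of these, Mrgpra6, rose on each of the 3 days. Of all genes, 2.59%, 3.72% and 2.33% rose at days 1, 3 and 7. All naive libraries of Mrgpra6 were below 1 RPKM, so it passed the filter only through injured libraries, where it was higher. Its calls are therefore a description of this gene and no support for a change of the family. Mrgpra6 had 0.925, 0.461 and 0.946 RPKM in naive ganglia, 4.02, 1.44 and 3.45 RPKM at day 1, 4.20, 5.38 and 4.37 RPKM at day 3, and 4.45, 4.06 and 4.70 RPKM at day 7. Every injured library was above every naive library. The log2 change was 1.39 ± 0.26 at day 1 (limma adjusted p = 0.00835), 2.01 ± 0.26 at day 3 (adjusted p = 3e-04) and 1.95 ± 0.26 at day 7 (adjusted p = 0.000613). The day 1 call was lost without day 1 replicate 1, at 1.14 and an adjusted p of 0.0552. Those of days 3 and 7 held under all 25 other settings that kept the gene, which the minimum of 5 RPKM left out. Naive levels rested on 7 to 13 reads, and the scale of log2(RPKM + 0.5) understates the change of a gene this low.

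Mrgpra9, the neighbour of Mrgpra6 at 29.9 kb in the same cluster, was higher in every injured library than in every naive library. It had 1.59, 0.68 and 2.25 RPKM in naive ganglia, 5.19, 3.52 and 4.77 RPKM at day 1, 4.03, 6.31 and 2.63 RPKM at day 3, and 5.48, 3.01 and 3.00 RPKM at day 7. With naive replicate 2 below 1 RPKM, Mrgpra9 also passed the filter only through injured libraries, where it was higher. Its tests are therefore a description of this gene and no support for a change of the family. No single day passed, with log2 changes of 1.39, 1.26 and 1.13 (SE 0.36 each, limma adjusted p = 0.0538, 0.0618 and 0.141). Days 1 and 3 passed in 8 and 4 of 26 other settings, in each case including voom weights on the recovered reads (adjusted p = 0.0228 and 0.0333), and day 7 in 0. Over the 3 days together it rose by 1.26 ± 0.29 on the log2 scale (adjusted p = 0.0217), beside 3.94% of all genes that rose, but it missed the threshold when naive replicate 1 (adjusted p = 0.073), naive replicate 2 (adjusted p = 0.148) or the muscle libraries (adjusted p = 0.0848) were left out. Transcripts of Mrgpra6 and Mrgpra9 are 90.5% identical, and 7.06% and 12.8% of their 50-base stretches are found in another gene, so some reads could have been assigned to either.

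**Figure D4:**
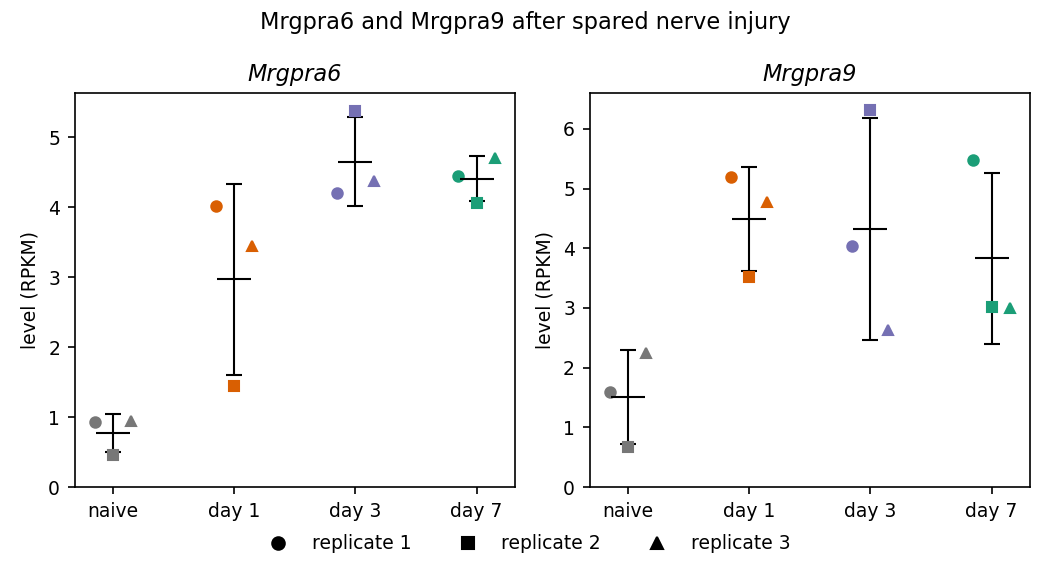
RPKM (y axis, from 0) of Mrgpra6 and Mrgpra9 in each of the 12 libraries by group (x axis), with the mean and SD of 3 libraries as lines and bars. Naive libraries lie at 0.461 to 0.946 RPKM for Mrgpra6 and 0.68 to 2.25 RPKM for Mrgpra9, below all 9 injured libraries of the same gene.

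The remaining tested relatives did not pass on any day. Mrgpra1 ran from 3.11 to 7.17 RPKM over the 12 libraries, and Mas1, the founding receptor of the family, from 2.11 to 4.39 RPKM. Mrgpra2a and Mrgpra2b ran from 1.52 to 6.04 and from 3.12 to 5.88 RPKM, but 87.5% and 81.2% of their 50-base stretches occur in another gene, so the division of reads between them is uncertain. The 9 relatives below the filter reached at most 1.24 RPKM. Among these, Mrgprb2, the mast cell receptor of the family, had 0 to 5 reads per library, and Mrgprb3 and Mrgprg are listed at 0 in all 12 libraries.

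Genes that act with the receptors or share their cells were followed in lists. Of 24 tested signalling and partner genes, 1 rose and 3 fell at day 1, 1 rose and 5 fell at day 3, and 1 rose and 0 fell at day 7, with median log2 changes of -0.04, -0.12 and -0.10. Of all genes, 2.59% rose and 0.831% fell at day 1, 3.72% rose and 1.95% fell at day 3, and 2.33% rose and 0.599% fell at day 7. Leaving out 1 library gave 1 to 4 fallers at day 1 and 2 to 8 at day 3, with 2 at day 3 without day 3 replicate 2 or naive replicate 3. Plcb3, the phospholipase C-beta of the itch pathway, averaged 27.6 ± 4.81 RPKM at day 3, against 43.4 ± 4.94 RPKM in naive ganglia, and fell by 0.68 on the log2 scale (limma adjusted p = 0.00764). Dgki, a diacylglycerol kinase, fell by 0.70 at day 3 (adjusted p = 0.0134), a call lost in 3 of 26 other settings. The call of Plcb3 at day 3 held in all 26.

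The gene of this list that rose on every day was Arrb1, the arrestin that binds activated G protein-coupled receptors. Arrb1 averaged 46.5 ± 1.36 RPKM in naive ganglia and 66 ± 3.01, 76.2 ± 3.15 and 64.6 ± 0.258 RPKM at days 1, 3 and 7, with log2 changes of 0.51, 0.68 and 0.44 (limma adjusted p = 0.0229, 0.0021 and 0.0495). The call was lost in 8, 1 and 20 of 26 other settings, so that of day 7 is borderline. Runx1 averaged 47.8 ± 2.07 RPKM in naive ganglia and 36.8 ± 1.66, 37.6 ± 0.473 and 41 ± 3.95 RPKM on the 3 days. In deposited RPKM all its injured libraries were below the naive libraries. On the scaled values that were tested, day 7 replicate 1 (scaling factor 0.909) was above naive replicate 1 (1.05) and naive replicate 3 (0.978). No day passed (limma adjusted p = 0.174, 0.123 and 0.461), although the days passed in 4, 5 and 1 of 26 other settings. Trpa1, the channel through which Mrgpra3 excites neurons, averaged 9.14 ± 2.84 RPKM at day 3, against 13 ± 0.732 RPKM in naive ganglia, and did not pass (adjusted p = 0.0713), though it did in 4 of 26 other settings.

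Markers of the Mrgprd class of nonpeptidergic neurons fell in part. Of 19 tested markers, leaving out Mrgprd itself, 0 rose and 7 fell at day 1, 1 rose and 8 fell at day 3, and 0 passed at day 7. Of all genes, 2.59% rose and 0.831% fell at day 1, 3.72% and 1.95% at day 3, and 2.33% and 0.599% at day 7. The median log2 change of these markers was -0.32, -0.56 and -0.24, all below the medians of -0.005 to 0.003 for all genes. Leaving out 1 library gave 2 to 7 fallers at day 1, with 2 each without day 1 replicate 1, naive replicate 1 or naive replicate 3, 3 without naive replicate 2 and 4 without day 1 replicate 2. It gave 5 to 9 at day 3, with 5 each without day 3 replicate 1 or 2 or naive replicate 2 or 3. Without the muscle libraries the fallers numbered 2 at day 1 and 5 at day 3. Cd55, a complement regulator on the cell surface, averaged 202 ± 21.6 RPKM in naive ganglia, 111 ± 14.3 at day 1, 126 ± 22.5 at day 3 and 169 ± 16.9 at day 7 (SD, n = 3 each), and fell at days 1 and 3 (log2 changes of -0.86 and -0.72, limma adjusted p = 0.00185 and 0.00466). Grik1, a kainate receptor subunit, fell by 0.59 and 0.63 on those days (adjusted p = 0.0173 and 0.00821), and Mal2, a membrane trafficking protein, by 0.61 and 0.62 (adjusted p = 0.0171 and 0.00987). The day 1 calls of these 2 genes were lost in 7 and 5 of 26 other settings. The nociceptor sodium channel genes Scn11a and Scn10a fell at day 3 (-0.63 and -0.56, adjusted p = 0.00595 and 0.0181), with the call of Scn10a lost in 5 of 26 other settings. P2rx3, the ATP-gated channel of the same neurons, rose at day 3 by 0.49 (adjusted p = 0.026), a call lost in 9 of 26 other settings, with an adjusted p of up to 0.155.

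Markers of the Mrgpra3 class moved both ways. Of 14 tested, 1 rose and 2 fell at day 1, 2 rose and 3 fell at day 3, and 1 rose and 1 fell at day 7, with medians of -0.05, -0.28 and -0.23, beside the shares of all genes given for the signalling list (3.72% higher and 1.95% lower at day 3). Of these genes, Cd55 at days 1 and 3, and Scn10a and P2rx3 at day 3, were already counted in the Mrgprd class. Leaving out 1 library gave 2 to 6 fallers at day 3, the highest without day 7 replicate 1. Gfra1, a receptor for GDNF, averaged 25.4 ± 2.34 RPKM in naive ganglia and 50.6 ± 4.45, 62.1 ± 4.30 and 51.6 ± 3.78 RPKM at days 1, 3 and 7 (SD, n = 3 each). Its log2 changes were 0.99, 1.25 and 0.98 (limma adjusted p = 0.000324, 2.29e-05 and 0.000274). Tmem255a, a membrane protein, averaged 65.1 ± 3.15 RPKM in naive ganglia and 44.6 ± 3.50, 33.9 ± 3.04 and 49.1 ± 4.21 RPKM on the 3 days, and fell on each (log2 changes of -0.54, -0.96 and -0.43, adjusted p = 0.00653, 2.94e-05 and 0.0269). Its calls were lost in 2 settings for day 1 and in 9 of 26 for day 7, and in none for day 3, while those of Gfra1 held in all 26.

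**Figure D5:**
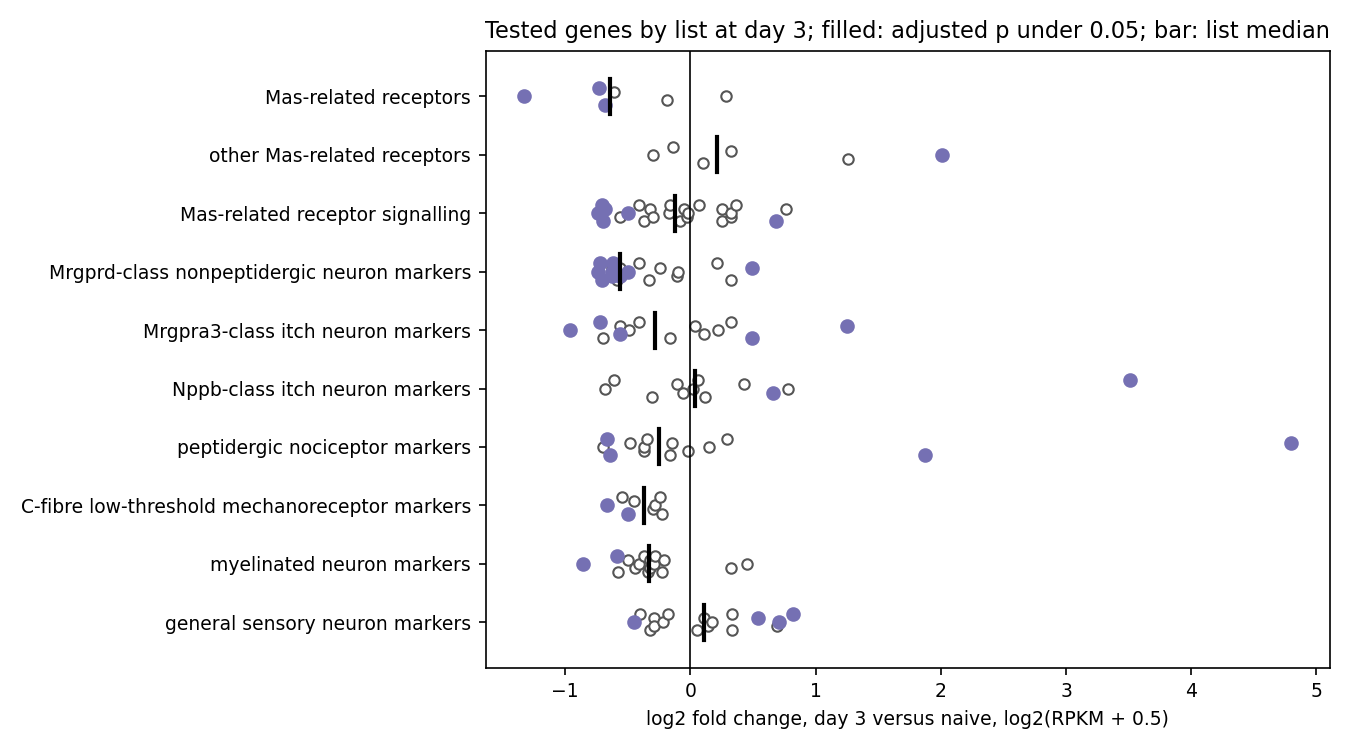
Log2 fold change at day 3 against naive ganglia (x axis, on the log2(RPKM + 0.5) scale) of every tested gene in 10 lists (y axis), filled where the limma adjusted p is under 0.05, with a bar at the list's median; some genes stand in more than 1 list. The bars of the 6 receptors and of the Mrgprd class lie at -0.64 and -0.56, those of the C-fibre mechanoreceptor, myelinated, Mrgpra3 and peptidergic classes at -0.37, -0.33, -0.28 and -0.25, and that of the general neuron markers at 0.11. The bars of the signalling list, the Nppb class and the other receptors of the family lie at -0.12, 0.04 and 0.21.

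Other neuron classes were set beside these, with counts to be read against the same shares of all genes. Those shares were 2.59% higher and 0.831% lower at day 1, 3.72% and 1.95% at day 3, and 2.33% and 0.599% at day 7. Another itch class, that of Nppb, had 4 markers that rose and 0 that fell at day 1 among 12 tested, with a median of 0.30, and 2 to 4 rose when 1 library was left out, with 2 without day 1 replicate 1 or 3 or naive replicate 2 or 3. In this class, 2 rose and 0 fell at day 3 (median 0.04), and 1 rose and 0 fell at day 7 (median 0.08). Of its members, the cytokine receptor gene Il31ra rose at days 1 and 3 (log2 changes of 0.77 and 0.66, limma adjusted p = 0.0025 and 0.00533). The neuropeptide gene Nts rose on all 3 days, by 1.30, 3.51 and 3.47 (adjusted p = 0.0282, 1.84e-05 and 3.23e-05, the call of day 1 lost in 6 of 26 other settings), and also stands in the list of genes induced by axotomy. Of 8 markers of C-fibre low-threshold mechanoreceptors, 2 fell at day 3, with medians of -0.11, -0.37 and -0.28 at days 1, 3 and 7. None of these calls was kept when any single naive library, day 1 replicate 1 or 2, or day 3 replicate 1 or 3 was left out, and the fallers numbered 1 without day 3 replicate 2 or day 7 replicate 2. Of 16 markers of myelinated neurons, 2 fell at day 3 (1 without day 3 replicate 2 or 3 or naive replicate 2 or 3), with medians of -0.21, -0.33 and -0.41. Of 14 peptidergic nociceptor markers, 2 rose and 2 fell at day 3 (0 fell without day 3 replicate 2 or naive replicate 2, and 1 without day 3 replicate 3 or naive replicate 3), with medians of -0.17, -0.25 and -0.31. The medians of these 3 classes were thus below 0 on every day, and at day 7 all 3 were below the -0.24 of the Mrgprd class. Of 17 tested general neuron markers, 3 rose and 1 fell at day 3, with medians of -0.06, 0.11 and -0.04 on the 3 days, and 1 rose at day 3 without day 3 replicate 2 or 3 or naive replicate 2 or 3. Among macrophage markers, 0, 5 and 5 of 10 rose at days 1, 3 and 7. Only 3 rose at day 3 without day 3 replicate 2 or 3, naive replicate 3 or the muscle libraries, and 3 rose at day 7 without the muscle libraries. Their sum was 16.6 to 22.4 RPKM in naive libraries, 21.2 to 23 at day 1, 38.6 to 53.2 at day 3 and 43.5 to 65.1 at day 7, with none of the 11 markers in the files at 0 throughout. The part of macrophage RNA in the changes of the receptors was not tested.

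By a rule that took the 3 tested genes with the smallest root mean square difference over the 12 libraries, after centring on naive, Mrgprd was most like Acpp, Plcb3 and Nipal3, at 0.0693, 0.0783 and 0.0844 log2 units. Acpp encodes the acid phosphatase long used to mark nonpeptidergic neurons. Its log2 changes were -0.45 at day 1 and -0.73 at day 3. Genes named by this rule were picked for their course in the same libraries, so their changes are a description only. Mrgprb4 was most like Magi3, Ccdc141 and Bche, at 0.105 to 0.114. The genes nearest to Mrgprb5 were farther from it, with Chrna6 at 0.404, Galr1 at 0.417 and Rab27b at 0.462. Chrna6, a nicotinic receptor subunit, had log2 changes of -1.36, -1.04 and -0.80 at days 1, 3 and 7. Mrgpra3 was nearest to Fam204a at 0.0757, Mrgprx1 to Wee1 at 0.196 and Mrgpre to Tkt at 0.0728.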

How the data were processed

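RNA of dorsal root ganglion was sequenced in 12 libraries, grouped by the timepoint and replicate number in the sample labels. Total RNA was taken up in Trizol, treated with DNase, amplified with a Nugen kit for ultra low input and built into TruSeq Nano libraries, per the labels' protocols. The submitters' processing notes name the build mm10 and the tools STAR, HTSeq, limma, edgeR and bcl2fastq 2.17, without saying what each did. Not given in the sources used here are the other versions, the annotation, the strand setting and the treatment of reads that match several genes.

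The values the authors deposited were read as RPKM. No unit is written in the files, and this was inferred from the values. Whole reads were recovered for 20449 of 21593 detected genes (94.7%, within 0.05 reads), and the implied gene length was a whole number for 99.8% of them. In 1 kb of gene, each read counted for 0.0557 to 0.0734 RPKM. Of 24060 entries, 4 with symbols that were not unique were left out.

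Libraries were scaled by trimmed means of log ratios (30% of ratios and 5% of levels trimmed at each end, no weights). Genes that reached 1 RPKM in 3 or more libraries entered limma 3.58.1 in R 4.3.3 as log2(scaled RPKM + 0.5), with 4 group means, a variance trend, robust moderation and 8 residual degrees of freedom. RPKM printed per library is as deposited, without the scaling. Pairs of receptors were tested with exact permutations in Python 3.11.15. Similarity between transcripts came from BLAST 2.17.0 on GENCODE M21, and windows and coordinates from mm10 (GRCm38), the build of the notes. Steps with a statistic across genes were tested on simulated data.

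The 6 receptors, the gene lists and the rule for named genes were chosen with earlier results of these data known. The rule named all receptors of the family found, up to 4 tested genes per list with the smallest p over the 3 days together, and the 3 genes most like each receptor. Runx1, Trpa1, Scn10a, Scn11a and Atf3 in part fall outside it and were named for their known roles. The other settings comprised pseudocounts of 0.1 and 1, no filter and a minimum of 5 RPKM, other scalings, array weights, voom on recovered reads, a replicate block, each library left out, the libraries with muscle transcripts left out, and a correction for length and GC content that was added after seeing the data. A result of the signalling list is not reported here.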

Additional observations from a re-analysis of the deposited data

How the results depend on the processing

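The day 3 calls of Mrgprb4, Mrgprb5 and Mrgprd and the day 1 call of Mrgprb5 kept their direction and their side of the threshold under all 26 other settings run for each. At day 1, where 1 receptor was called, array weights gave 4 and the length and GC correction, chosen after seeing the data, gave 2. Leaving out 1 library gave 1 to 2, the second being Mrgprb4 without day 7 replicate 1. At day 7, where 0 were called, array weights gave 1 (Mrgprb4), the length and GC correction gave 1 (Mrgprd), and leaving out 1 library gave 0 to 1 (Mrgprb4 without day 7 replicate 1). For day 7 against day 1, also 0, the minimum of 5 RPKM, array weights and voom gave 1 each, and leaving out 1 library gave 0 to 1 (without day 1 replicate 2), in each case Mrgprb5. Over the 3 days together, where 3 were called, removing the libraries with muscle transcripts left 1 and leaving out 1 library gave 1 to 3, with Mrgprb5 alone called without naive replicate 2. Without naive replicate 3 the call of Mrgprb5 was lost instead (adjusted p = 0.0542). The pairs of receptors that passed were 0 in every setting run for them, which says nothing about stability, since with 220 arrangements 1 or 2 pairs alone could not pass. The cause of these shifts was not tested.

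The sign turned for Mrgprb5 at day 3 against day 1 (-0.06 without day 1 replicate 1, and up to 0.54 with another library left out), for Mrgpre at day 7 against naive (-0.02 without naive replicate 2, -0.05 and -0.01 without day 7 replicates 2 and 3, and up to 0.34) and for Mrgpre over the 3 days (-0.03 without naive replicate 2, and up to 0.2), all values that did not pass. No sign was seen that the replicate numbers pair the samples, though so few libraries cannot settle it. Deviations from group means correlated by -0.34 to 0.234 between the 18 same-numbered pairs of libraries, with a median of -0.0414, against 0.00629 for 36 pairs with different numbers. With the replicate block the receptors called were 1, 3 and 0 at days 1, 3 and 7 and 3 over the 3 days, and 362, 652, 323 and 668 genes were called in all.

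Over all genes, 486, 805 and 415 were called at days 1, 3 and 7. Array weights gave 1842, 1954 and 831, and the length and GC correction 830, 1333 and 834. Leaving out 1 library gave 218 to 618, 449 to 1084 and 235 to 519, the lowest without day 1 replicate 1 at day 1 and without naive replicate 3 at days 3 and 7. The share of calls that were higher was 75.7%, 65.6% and 79.5%, against 87.4%, 59.3% and 90.1% with values centred on the neuron markers and 62.4%, 51.4% and 52.8% with the length and GC correction. Centring on neuron markers put the median log2 change of all genes at -0.135 for day 3 against day 1, 0.125 for day 7 against day 3 and -0.1 for day 3 against naive. In the fit used above it was 0 to 0.002 for these comparisons. Depth limits Mrgprx1, with as few as 41 reads in a library, and Mrgpra6 and Mrgpra9 in naive ganglia, with as few as 7 and 12.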

Other observations

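The 3 genes most like Mrgpra6 over the 12 libraries were Lgals3, Nfil3 and Sdc1, with root mean square differences of 0.338, 0.346 and 0.353 log2 units, beside 1.59 for Mrgpra6 itself around its naive mean. Lgals3, which encodes galectin-3, had log2 changes of 1.52, 1.58 and 1.65 at days 1, 3 and 7. Nfil3, a transcription factor, had log2 changes of 1.28, 1.92 and 1.62. Sdc1, a cell surface proteoglycan, had changes of 1.57, 2.41 and 1.95. Mrgpra9 was nearest to Aim2, at 0.36, a DNA sensor of the inflammasome with log2 changes of 1.55, 0.90 and 1.07. These genes were found by likeness in the same libraries, so their changes are no independent support for those of the receptors.

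Of the mast cell markers, 3 of 9 were tested and 0 passed in limma at any day (Cpa3 had an unadjusted p under 0.05 at days 1 and 3), with summed levels of 32.7 to 33.9 RPKM in naive libraries, 26.5 to 28 at day 1, 28.5 to 32.5 at day 3 and 28.9 to 30.7 at day 7. Much of that sum was Kit, which sensory neurons also express and which averaged 27.3 ± 1.66 RPKM in naive ganglia (SD, n = 3). Satellite glia had 1, 1 and 0 of 10 markers that rose at days 1, 3 and 7, beside 2.59%, 3.72% and 2.33% of all genes, and 0 that fell. Schwann cell markers had 0 of 10 in either direction in limma, with none at an unadjusted p under 0.05 either.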
